A study of Mus musculus with 12 samples.

Results

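The Id genes Id1, Id2, Id3 and Id4 and the E-protein genes Tcf3, Tcf4 and Tcf12 were followed through maps of H4K8ac, acetylation of lysine 8 on histone H4, in neonatal and adult mouse oligodendrocyte progenitor cells. The 7 genes were chosen as the inhibitors and the common partners of one transcription factor family, and their peaks were all peaks to which the authors' annotation gave one of these 7 symbols, of 23433 genes named in the peak lists. They hold 502 of the 269580 peaks. Progenitors, the dividing glial cells that form myelinating oligodendrocytes, were sorted from the forebrain of Pdgfra-H2BEGFP mice, which carry a nuclear green fluorescent protein under the control of Pdgfra, a receptor gene of these cells. Cells were taken on postnatal day 5 (neonatal) or day 60 (adult), with the same genotype, tissue and Active Motif antibody at both ages and 3 H4K8ac libraries at each. The labels call the libraries biological replicates and do not say how many animals each one holds. Matching inputs were not analysed here.

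The Id proteins have a helix-loop-helix domain without the basic stretch that contacts DNA. They pair with E-proteins, basic helix-loop-helix factors found in most tissues, and so keep them from pairing with lineage factors such as Olig1 and Olig2 and from binding the E-box, CANNTG. BMP signals induce Id genes, and in the oligodendrocyte lineage Id2 and Id4 are known for holding back differentiation. Tcf4 here is the E-protein gene and not Tcf7l2, the Wnt effector that is also called TCF4. Acetylated histone H4 is a mark of active promoters and enhancers.

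Each library has its own peak list, and the neonatal lists held 9097, 31189 and 7353 peaks (replicates 1, 2 and 3) against 72278, 72661 and 77002 in the adult. Neonatal replicate 2 stood apart from the other neonatal libraries, with 13.7 Mb covered by peaks against 2.98 and 2.33 Mb, and the adult lists covered 41.9 to 60.9 Mb. Main results that rest on replicate 2 are given with and without it. Read depth per library is unknown, and no interval was computed from it. The lists held promoter peaks at 5 or 6 of 6 progenitor marker genes in each library. Of 6 oligodendrocyte marker genes, 1 (Mbp) had a promoter peak in each neonatal library and 6 in each adult library. Microglial and endothelial markers had none in the neonatal lists and 1 of 6 each in the adult lists (Cx3cr1 and Pecam1), with Tmem119, P2ry12, Cldn5 and Flt1 at none in any library. Neuronal markers counted 0, 4 and 1 of 6 in the neonatal and 4, 2 and 2 in the adult lists, astrocyte markers 1, 4 and 2 against 3, 1 and 4, and fibroblast markers 0, 3 and 0 against 1, 2 and 1. The oligodendrocyte markers moved with age together with the E-protein genes below, and their part in those results was not tested. In a sorted population, a change in the mark per cell and a change in the share of cells that carry it cannot be told apart.

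The 3 E-protein genes and Id3 had more sequence under H4K8ac peaks in every adult library than in any neonatal library, and Id1, Id2 and Id4 overlapped between the ages. These 4 of 7 members stand against 60.0% of all 23433 genes with the same order, so the count itself does not set the members apart. The median adult minus neonatal difference was 6.42 kb over the E-protein genes and 0.33 kb over the Id genes, against 0.66 kb over all genes. The Id genes are 1.16 to 4.91 kb long and the E-protein genes 24.4 to 344.5 kb, and no test of a difference between the families was made. As a share of the gene under any peak, the adult minus neonatal difference was 17.8 percentage points for Tcf4, 17.5 for Tcf3 and 6.52 for Tcf12. For the Id genes it was 45.1 (Id3), 8.89 (Id2), 6.43 (Id4) and -0.32 (Id1) points. Each of them overlapped between the ages on this measure, but through neonatal replicate 2 alone. Neonatal replicates 1 and 3 had 14.1% and 0% for Id3, 7.69% and 0% for Id4, and 0% for Id1 and Id2. The lowest adult library had 59.1% (Id3), 10.1% (Id4), 16.0% (Id1) and 8.41% (Id2). Id3 had 64.7% in neonatal replicate 2 and 59.1% in adult replicate 2 (exact permutation test, p = 0.2). With 3 against 3 libraries the smallest p of the exact two-sided permutation test is 0.1, so no member could reach 0.05. The smallest p is also 0.1 for the 3 against 2 libraries left without neonatal replicate 2. Without neonatal replicate 2, 6 of 7 members were higher in every adult library (the exception was Id4), against 74.6% of genes.

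**Figure D1:**
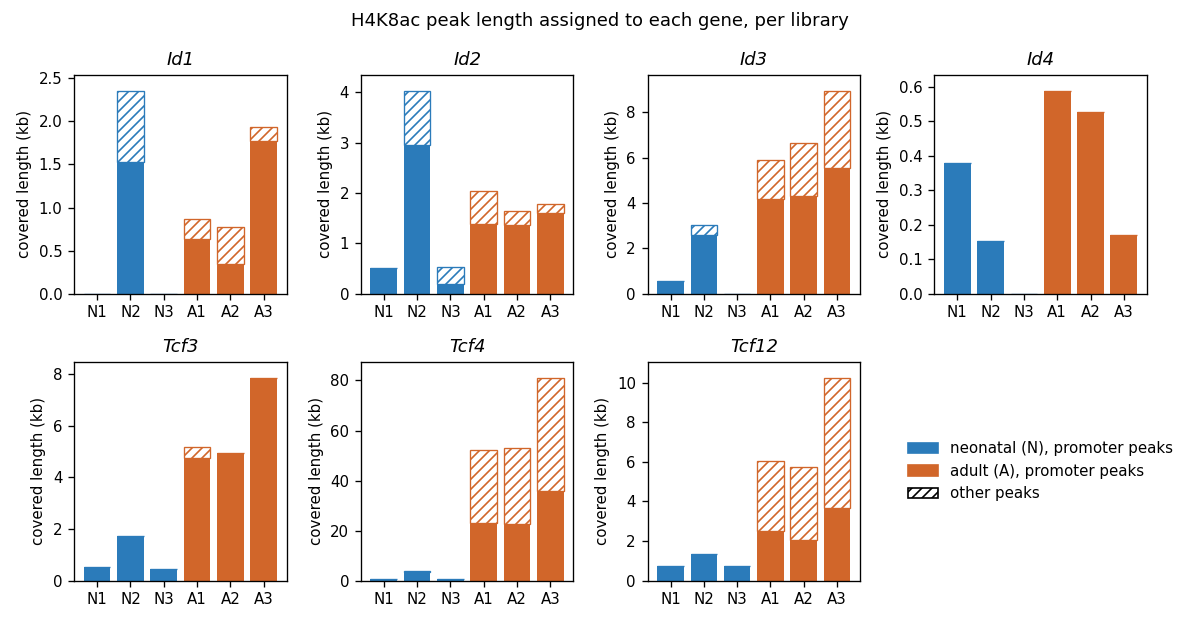
Length of sequence (kb) under the H4K8ac peaks assigned to each of the 7 genes, in neonatal (N1 to N3) and adult (A1 to A3) libraries; solid bars are promoter peaks and hatched bars other peaks, and each panel has its own axis from 0. Tcf4 reached 52.2 to 81.1 kb in the adult libraries, and the highest bar for Id1 and Id2 belongs to neonatal replicate 2.

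Upstream sequence from RefSeq (GRCm38.p6) was matched for 5 of the 7 members. It is shown for 2 Id and 2 E-protein genes so that the peaks at their starts can be placed on the sequence. The windows are 250 bases ending just before a RefSeq transcription start (for Tcf12 the most upstream of 3), on the gene's strand, with E-boxes in capitals, and were chosen with their peaks known. For Id2 and Id3 this is the gene start from which distances are counted. The Tcf3 window lies wholly inside the gene, downstream of its start at 80433976. The Tcf12 window spans the gene start at 72111893.
Id2, chr12:25096093-25096342, minus strand: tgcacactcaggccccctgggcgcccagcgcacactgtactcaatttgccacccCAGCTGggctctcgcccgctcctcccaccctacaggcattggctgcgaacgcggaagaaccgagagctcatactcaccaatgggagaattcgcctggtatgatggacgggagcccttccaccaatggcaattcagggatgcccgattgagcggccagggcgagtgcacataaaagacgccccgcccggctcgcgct
Id3, chr4:136143572-136143821, plus strand: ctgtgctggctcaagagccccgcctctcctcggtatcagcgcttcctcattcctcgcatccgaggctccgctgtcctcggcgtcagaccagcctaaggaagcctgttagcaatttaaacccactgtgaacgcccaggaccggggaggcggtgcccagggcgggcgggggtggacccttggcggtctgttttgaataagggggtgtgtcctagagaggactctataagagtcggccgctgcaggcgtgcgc
Tcf3, chr10:80433636-80433885, minus strand: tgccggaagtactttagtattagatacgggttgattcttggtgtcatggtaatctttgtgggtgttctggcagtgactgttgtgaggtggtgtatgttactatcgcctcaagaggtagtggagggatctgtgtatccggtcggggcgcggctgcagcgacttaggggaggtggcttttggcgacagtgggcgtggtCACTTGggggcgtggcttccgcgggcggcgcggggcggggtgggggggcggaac
Tcf12, chr9:72111820-72112069, minus strand: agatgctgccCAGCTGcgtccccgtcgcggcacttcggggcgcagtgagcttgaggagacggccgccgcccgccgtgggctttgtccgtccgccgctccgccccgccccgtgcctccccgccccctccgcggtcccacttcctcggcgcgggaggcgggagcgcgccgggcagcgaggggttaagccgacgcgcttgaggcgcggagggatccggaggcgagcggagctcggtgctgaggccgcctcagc
The Id2, Tcf3 and Tcf12 windows hold 1 E-box each and the Id3 window none. A search for CANNTG, which reads the same on both strands, found at least 1 match in 66.2% of 32851 such windows, so a match in 3 of 4 is near that share. The Id2 window also holds 3 CCAAT matches (either strand, present in 33.8% of windows) and 1 GGCGCC match (9.59%). The windows differ in CpG number, with 18 in Id2, Id3 and Tcf3 and 38 in Tcf12, against a median of 6.

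Adult peaks covered the Tcf12 window whole (250 bases in all 3 adult libraries), and neonatal peaks covered 70, 250 and 0 bases. The Tcf12 window just downstream (chr9:72111202-72111451) showed almost no such contrast, with 205, 250 and 250 bases in the neonatal and 250 in each adult library, and the internal Tcf12 window (chr9:71896097-71896346) had no peak in any library. The Tcf3 window was whole in all adult libraries and in neonatal replicate 2, and free of peaks in neonatal replicates 1 and 3. Their peaks ended just short of it, at 80433579 and 80433597. At the Id3 window the adult libraries had 250, 124 and 250 bases in peaks and the neonatal libraries none. In neonatal replicate 2 this window fell in a gap between a peak ending at 136143562 and a peak starting at 136143932. The Id2 window had 250, 49 and 68 bases in the adult libraries, and 29 bases in neonatal replicate 2 alone among the neonatal. The Id4 window (chr13:48260866-48261115), not shown, had 41 bases in neonatal replicate 2 and 24 in adult replicate 1, and none in the other libraries.

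Id2 is an inhibitor whose loss or overexpression shifts progenitor differentiation in culture. Its peaks covered 0.50, 4.02 and 0.52 kb in the neonatal libraries and 2.03, 1.63 and 1.78 kb in the adult. Neonatal replicate 2 lay above all adult libraries and the other neonatal libraries below them, so the ages overlapped (difference 0.13 kb; exact permutation test, p = 1). Without replicate 2 the difference was 1.30 kb (exact permutation test, p = 0.1). The one Id region present in all 6 libraries lay 3.0 kb upstream of the Id2 start (chr12:25098166-25099981). There the peaks measured 502, 1816 and 185 bp in the neonatal and 488, 923 and 722 bp in the adult libraries, with no order between the ages. The region over the start itself (chr12:25095528-25096848), which includes the window shown above, had a peak in all 3 adult libraries (886, 446 and 884 bp) and in neonatal replicate 2 alone among the neonatal (797 bp).

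Id3 was the Id gene with the widest adult signal. Its peaks covered 0.57, 3.05 and 0 kb in the neonatal and 5.91, 6.63 and 8.94 kb in the adult libraries, with every adult library above every neonatal one (difference 5.95 kb; exact permutation test, p = 0.1). The Id3 difference was 6.87 kb without neonatal replicate 2 (exact permutation test, p = 0.1). Promoter peaks made up 4.18, 4.32 and 5.56 kb of the adult length. The region over the gene (chr4:136142093-136145204) measured 2182, 2130 and 2878 bp in the adult libraries, and neonatal replicates 1, 2 and 3 had 221, 2036 and 0 bp. Neonatal replicate 2 thus came close to the adult libraries over the gene. In a distal intergenic region (chr4:136150105-136153454, centred 7.96 kb past the start) it did not, with 1525, 2305 and 3157 bp in the adult libraries and 0, 150 and 0 bp in the neonatal.

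Id1, a target of BMP receptor signalling, had no peak in neonatal replicates 1 and 3, 2.35 kb in replicate 2, and 0.87, 0.77 and 1.94 kb in the adult libraries. Replicate 2 was again the highest of the 6 (difference 0.41 kb; exact permutation test, p = 0.6; 1.19 kb and p = 0.1 without replicate 2). Id4 had the least covered length of the members, with 0.38, 0.15 and 0 kb in the neonatal and 0.59, 0.53 and 0.17 kb in the adult libraries (difference 0.25 kb; exact permutation test, p = 0.2). The Id4 difference was 0.24 kb without replicate 2 (exact permutation test, p = 0.4). All Id4 peaks were promoter peaks. Further peaks inside Id4 carry the symbol Gm49291 in the authors' annotation (1155 bp in neonatal replicate 2, and 491, 176 and 1216 bp in the adult libraries) and are not counted here.

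Merging the lists gave 21 regions assigned to Id genes, of which 18 (85.7%) had a peak in at least 1 neonatal library, against 26.3% of all 98027 merged regions. For 12 of these 18, replicate 2 was the only neonatal library with a peak. Without replicate 2, 6 of 18 Id regions (33.3%) and 5 of 185 E-protein regions (2.70%) had a neonatal peak, against 10.1% of 92846 regions. The E-protein genes had 185 regions, with 13 (7.03%) in any neonatal library and 41 (22.2%) in all adult and no neonatal libraries, against 20.4% of all regions. Tcf4 supplies 151 of the 185 regions. Promoter regions made up 16 of the 21 Id regions and 48 of the 185 E-protein regions. Among promoter regions alone, 15 of 16 Id regions (93.8%) and 11 of 48 E-protein regions (22.9%) had a neonatal peak, against 46.5% of 37224. Without replicate 2 these were 5 of 13 (38.5%) and 5 of 48 (10.4%), against 22.9% of 35287 promoter regions.

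Tcf4, on chromosome 18 from 69343429 to 69687967, spans 344.5 kb and is the E-protein gene linked to Pitt-Hopkins syndrome in people. Its peaks numbered 3, 13 and 2 in the neonatal and 105, 96 and 119 in the adult libraries, covering 0.73, 3.89 and 0.67 kb against 52.2, 52.9 and 81.1 kb. Every adult library lay far above every neonatal one (difference 60.3 kb, 35.2-fold; exact permutation test, p = 0.1), and Tcf4 ranked 12 of 23433 genes by adult covered length. Without neonatal replicate 2 the ratio was 89.1 (exact permutation test, p = 0.1). Peaks covered 15.4%, 15.6% and 23.8% of the Tcf4 gene in the adult libraries and 0.21%, 1.13% and 0.19% in the neonatal. Among 2426 protein-coding genes of at least 100 kb, Tcf4 ranked 88 and Tcf12 285 by the share covered in adult libraries, where the median gene had 0.87%.

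All merged Tcf4 regions lay inside the gene, and most of the adult covered length lay outside promoters. Peaks outside promoters covered 29.3, 30.3 and 45.3 kb in the adult libraries, and 0.36 kb in neonatal replicate 2 alone among the neonatal. The promoter label reaches deep into the gene too, since the annotation placed Tcf4 peaks at 29 transcripts: of 23.0, 22.6 and 35.8 kb of adult promoter peaks, 2.91, 2.71 and 3.49 kb lay within 3 kb of the first start. Of 151 merged regions, 2 were present in all 6 libraries. The first (chr18:69343626-69347494) lies at the gene start, where peaks measured 532, 967 and 474 bp in the neonatal and 3156, 2713 and 3491 bp in the adult libraries. The other (chr18:69592208-69594758) lies 250.1 kb into the gene at an internal start, with 195, 374 and 192 bp in the neonatal and 2274, 2106 and 2533 bp in the adult libraries. The mark at Tcf4 was therefore present at both ages at these starts and wider in every adult library, as it was at 75.3% of the 4647 regions found in all 6 libraries.

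The strongest Tcf4 peak of each library lay within the region at the gene start. In the neonatal libraries this peak lay 2.8 to 3.1, 2.6 to 3.3 and 2.8 to 3.2 kb into the gene. The strongest peak stood within the top 3.88%, 2.33% and 4.39% of the neonatal lists and the top 1.35%, 0.55% and 0.19% of the adult lists by the authors' p-value. The widest adult region of Tcf4 (chr18:69533394-69538729, 192.6 kb into the gene, in an intron) had 3050, 4040 and 4878 bp in the adult libraries and no neonatal peak. It is 1 of 34 Tcf4 regions found in all adult and no neonatal libraries.

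Tcf12, on chromosome 9 from 71844252 to 72111893, spans 267.6 kb and encodes the E-protein also called HEB. Its peaks covered 0.71, 1.36 and 0.71 kb in the neonatal and 6.04, 5.74 and 10.2 kb in the adult libraries, and the ages did not overlap (difference 6.42 kb, 7.94-fold; exact permutation test, p = 0.1). The Tcf12 ratio was 10.3 without neonatal replicate 2 (exact permutation test, p = 0.1). All neonatal Tcf12 peaks lay in the promoter region that holds the window shown above (chr9:72110192-72112718), with 710, 1355 and 711 bp against 2254, 2028 and 2474 bp in the adult libraries. The other adult peaks lay chiefly in intron 3, 11.2 to 21.8 kb into the gene, where the 2 widest regions measured 1215, 1504 and 1562 bp and 1205, 613 and 1642 bp. No Tcf12 peak outside the promoters was called in a neonatal library. Many adult peaks inside Tcf12 carry the symbols of overlapping gene models such as Gm27152 and Gm37879 in the annotation. Assigned by position, Tcf12 held 13.3, 13.0 and 30.1 kb in the adult libraries, and the neonatal values did not move.

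Tcf3, a gene of 24.4 kb on chromosome 10 (80409541 to 80433976), encodes the E-protein best known from lymphocyte development. Its peaks covered 0.54, 1.73 and 0.46 kb in the neonatal and 5.19, 4.94 and 7.86 kb in the adult libraries, again without overlap (difference 5.09 kb, 6.60-fold; 12.1-fold without neonatal replicate 2; exact permutation test, p = 0.1 with and without it). The region at the start (chr10:80432880-80433970) was in all 6 libraries, at 346, 811 and 455 bp in the neonatal and 1084, 922 and 1070 bp in the adult. A second region 20.6 kb into the gene (chr10:80411596-80415232) had 194, 918 and 0 bp in the neonatal and 1515, 2144 and 3637 bp in the adult libraries. Between them lay 3 regions with peaks in all adult and no neonatal libraries. Tcf3 thus had the mark at both ends of the gene, and the stretch between was called in adult lists alone.

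**Figure D2:**
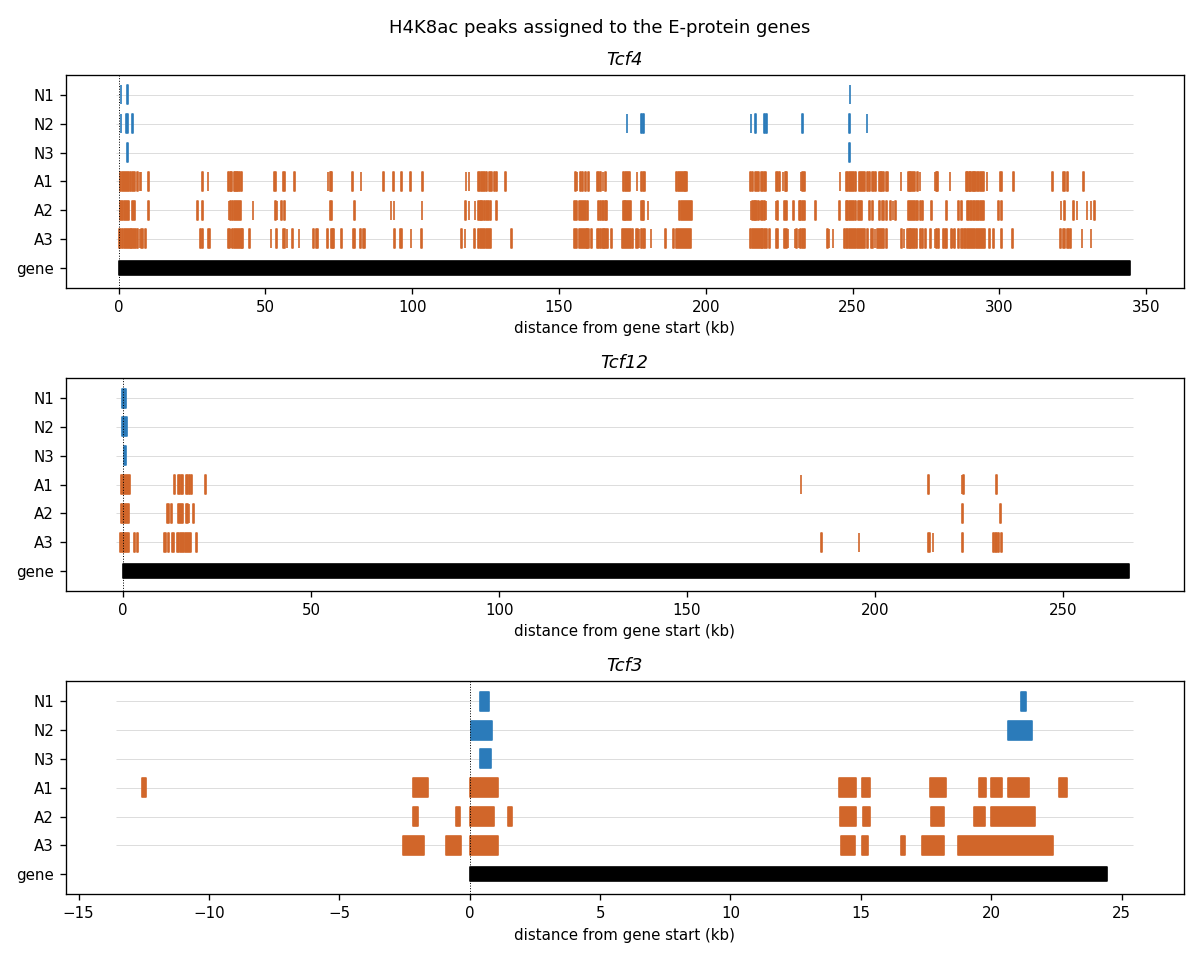
Positions of H4K8ac peaks assigned to Tcf4, Tcf12 and Tcf3, as distance from the gene start in kb along the gene's direction, in 3 neonatal (N) and 3 adult (A) libraries; black bars are the genes. Adult peaks spread over the whole length of Tcf4 (96 to 119 peaks per library). Adult peaks assigned to Tcf12 lie in 2 stretches, near its start and 180.3 to 233.6 kb into the gene. Further adult peaks inside Tcf12 carry other symbols and are not drawn. The neonatal peaks of Tcf12 sit at its start, and those of Tcf4 and Tcf3 also lie far inside the genes.

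Split by class, promoter peaks separated the ages for Id3, Tcf3, Tcf4 and Tcf12 (4 of 7 members, against 60.1% of genes with a promoter peak). Other peaks separated them for Id3, Tcf4 and Tcf12 (3 of 6, against 51.8% of genes with such a peak). Id4 had no other peak in any library and is left out of the second count. These counts were 6 of 7 (against 75.2%) and 4 of 6 (against 61.3%) without neonatal replicate 2. At least 1 promoter peak was found for 6, 7 and 4 members in the neonatal libraries and for all 7 in every adult library. The same members had a peak of any class. Of all 23433 genes, 6973, 16202 and 6058 had a peak of any class in the neonatal and 19242, 18877 and 19645 in the adult libraries. The share of all genes with a promoter peak in each library was not computed. The E-protein genes had one in all 6 libraries. The neonatal gaps were thus all in the Id genes, with Id1 absent in replicate 1 and Id2 the one Id gene left in replicate 3.

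Since the lists differ in length, the same number of strongest peaks was taken from each library (7353, the length of the shortest list, ranked by the authors' p-value). This keeps 80.8%, 23.6% and 100% of the neonatal lists but 10.2%, 10.1% and 9.55% of the adult lists, with the last peak kept at a −log10 q of 3.48, 15.0 and 1.37 against 25.8, 25.1 and 33.6. A gene that drops out of the adult lists here is therefore not shown to have less of the mark. The 3 E-protein genes were still higher in every adult library, against 34.4% of genes. Tcf4 had 0.73, 1.34 and 0.67 kb in the neonatal and 4.57, 4.50 and 5.57 kb in the adult libraries, Tcf12 0.71, 1.36 and 0.71 kb against 2.85, 2.03 and 2.47 kb, and Tcf3 0.54, 0.81 and 0.46 kb against 1.88, 2.63 and 4.71 kb. All but 1 of these E-protein peaks were promoter peaks; the exception was a Tcf12 peak in adult replicate 1. The Id genes were mostly below the limit. Id2 had 0.50, 2.89 and 0.52 kb left in the neonatal libraries and none in the adult (an order found in 4.64% of genes, and in 8.21% without neonatal replicate 2). The Id2 peaks that dropped out of the adult lists reached a −log10 q of 11.8, 12.4 and 17.5, above the 4.87 and 8.54 of the best Id2 peaks kept in neonatal replicates 1 and 3. Id3 had 1 peak left, in neonatal replicate 1 (0.345 kb, −log10 q 5.60), while its best peak in adult replicate 1 (−log10 q 25.7) ranked 7408 and just missed the limit. Id1 and Id4 had none in any library. The equal number thus left the order of the E-protein genes in place and gave no comparison of the ages for the Id genes.

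**Figure D3:**
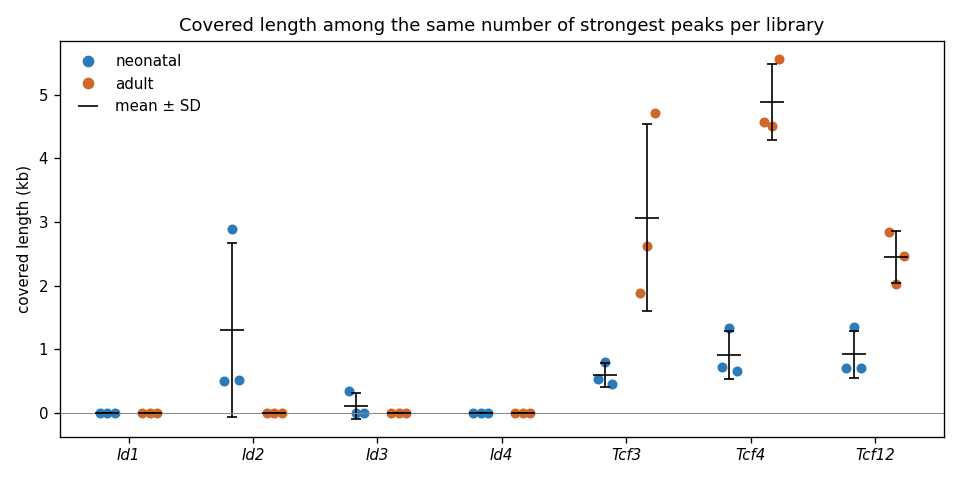
Covered length (kb) of each gene among the 7353 strongest peaks of each library; points are libraries, black marks the mean ± SD of 3 libraries per age. The adult points of Tcf3, Tcf4 and Tcf12 lie above their neonatal points, and the adult points of all 4 Id genes lie at 0, where 9.55% to 10.2% of each adult list was kept.

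The authors' deposited table lists 400 bp sites that differed between the ages at an adjusted p under 0.05, with log2 fold changes read here as positive where higher in adult cells. It lists 43888 of about 54838 tested sites, 79.6% of the tested sites as higher in adult and 0.46% as lower. By overlap with the deposited peaks, 82 sites of the authors' deposited table belong to the members, and all 82 are positive. Tcf4 has 64, Tcf12 9, Tcf3 6 and Id3 3, while Id1, Id2 and Id4 have no listed site. A gene without a listed site is not shown to be unchanged. These 4 of 7 members stand against 65.0% of genes with a peak that have a positive site in the authors' deposited table.

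The sites differ by where they lie. In the authors' deposited table the 42 Tcf4 sites outside promoters have a median log2 fold change of 3.15 and the 22 promoter sites 1.95, against 2.85 and 1.86 over all listed sites of each class. The site in the region at the Tcf4 start, centred 2.99 kb into the gene, has peaks in all 6 libraries. It is at 1.52 in the authors' deposited table (adjusted p = 0.000216), and the internal start shared by all libraries is at 1.67 (adjusted p = 8.07e-05). The highest Tcf4 site, in an intron 261.7 kb from the start, is at 6.41 (adjusted p = 9.51e-08) in the authors' deposited table and has peaks in all adult and no neonatal libraries. Both starts thus lie below the median of all listed sites, 2.41, and the intron site above it.

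At Tcf12 and Tcf3 the start had the lowest value of the gene's sites. In the authors' deposited table the Tcf12 start is at 1.45 (adjusted p = 0.00156) and its highest site, in intron 3, at 4.19 (adjusted p = 4.90e-10). The Tcf3 start is at 1.34 (adjusted p = 0.00716) and a site 18.0 kb into Tcf3 at 3.75 (adjusted p = 8.83e-06), both from the authors' deposited table. Id3 has its highest value, 3.66 (adjusted p = 5.25e-09 in the authors' deposited table), at the distal region named above, and 1.39 and 1.57 at promoter sites on either side of the gene. The sequence directly over the Id3 gene has no listed site.

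**Figure D4:**
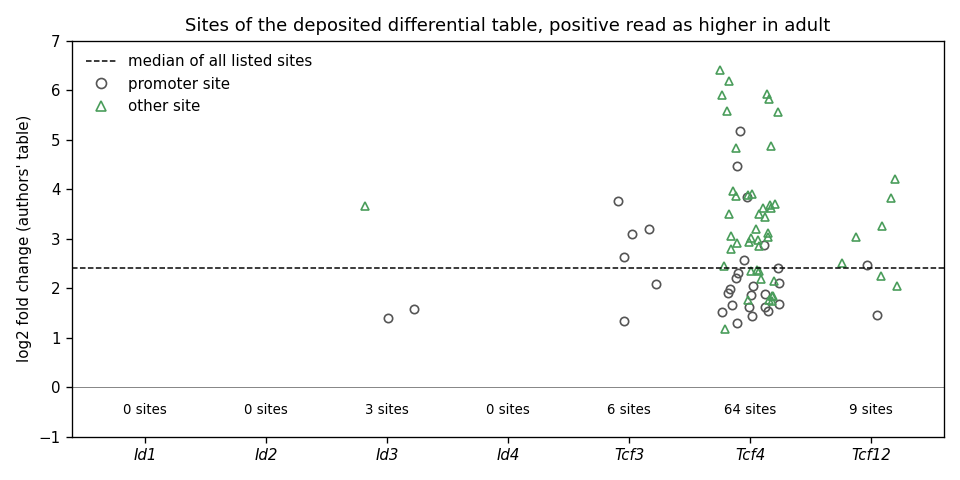
Log2 fold change of each site of the authors' deposited table assigned to a member (circles promoter, triangles other sites; horizontal scatter within a gene is arbitrary); the dashed line is the median of all listed sites, 2.41. All 82 sites are above 0, and Id1, Id2 and Id4 have none.

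The partners and upstream signals of these genes were read from 2 lists. Of 16 lineage-specific basic helix-loop-helix genes that pair with E-proteins, 3, 4 and 4 had a promoter peak in the neonatal libraries and 5, 3 and 4 in the adult, and 11 had none in any library. Olig1 and Olig2, which specify the lineage, had one in all 6 libraries and 1 positive site each in the authors' deposited table (1.83 and 1.49). Of 16 genes of BMP signalling, 9, 16 and 10 had a promoter peak in the neonatal and 13, 12 and 12 in the adult libraries, and 9 had one in all 6. A promoter peak in every adult and no neonatal library (12.1% of genes), or in every neonatal and no adult library (0.264% of genes), was found for no gene of either list.

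Among the strongest 7353 peaks, Bmp7, a BMP ligand, and Chrd, which encodes a secreted BMP antagonist, had a promoter peak left in all neonatal and no adult libraries, as 4.59% of genes did, under the same unequal limits. Bmp7 is also the 1 BMP gene of 11 with a negative promoter site in the authors' deposited table (-1.15, adjusted p = 0.0175). Median log2 fold changes of promoter sites in the authors' deposited table were 1.56 over 3 partner genes and 1.38 over 11 BMP genes, against 1.77 over 12054 genes. In the full lists both Bmp7 and Chrd had a promoter peak in every library.

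The genes with the most similar covered length over the 6 libraries, by distance of log2(kb + 1) among 14227 protein-coding genes, were Mro and Rreb1 for Id1, Zfp36l1 and Pknox2 for Id2, Scd2 and Foxo3 for Id3, and Mdm1 and Spata32 for Id4. For the E-protein genes they were Bdh1 and Tob1 (Tcf3), Tns3 and Tmem132b (Tcf4), and Naaladl2 and Jak2 (Tcf12). Tns3, at a distance of 0.66, had 1.32, 4.65 and 0.51 kb in the neonatal and 40.8, 48.8 and 69.0 kb in the adult libraries, a wide adult coverage like that of Tcf4. Zfp36l1, at 0.43 from Id2, had 0.72, 3.27 and 0.31 kb against 1.61, 1.63 and 1.72 kb.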

How the data were processed

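H4K8ac peaks of 3 neonatal and 3 adult libraries were compared. Per the submitters' processing notes, Trim Galore, Bowtie2 2.4.5, SAMtools, deepTools, MACS2, DiffBind, ChIPseeker and the build GRCm38 were used; roles and settings are not given in the sources used here. Per the file headers, each deposited list gives a peak's position, score (10 times −log10 q, rounded down), fold enrichment as a linear ratio, and −log10 of p and q, with the nearest gene. Peaks were called per library. The authors' deposited table holds per 400 bp site a p-value, raw and adjusted, and a log2 fold change; its direction was read from overlap (92.2% of positive sites had peaks in more adult than neonatal libraries), and 54838 tested sites were recovered from its adjustment.

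Covered length per gene was summed in Python 3.11.15 with numpy 2.4.6 and pandas 2.3.3, counted from 1, and compared by the exact two-sided permutation test over 20 arrangements. Where a library was left out, the test ran over the fewer arrangements of 3 against 2 libraries. Each p-value, unadjusted per member, is the share of arrangements whose absolute difference of means is at least the observed one. Promoter peaks lie within 3000 bp of an annotated start, as the authors called them. Peaks were merged into regions where they shared at least 1 bp. Scripts were tested on simulated data. Alternatives were an equal number of peaks, a q limit of 0.005, assignment by position, promoters within 1000 bp, each library left out, and pairing by replicate number. The members and lists were chosen with earlier results of these data known. Named list genes were those with a promoter peak in 3 libraries of either age and 0 of the remaining 3, or with a negative promoter site, and the 2 genes most like each member; Olig1, Olig2, Chrd and the marker genes were named after their values were seen.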

Additional observations from a re-analysis of the deposited data

How the results depend on the processing

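The counts of members higher in every adult library (4 for all peaks, 4 for promoter, 3 for other peaks) were 3 or 4 in each class under a q limit of 0.005, assignment by position and promoters within 1000 bp. With an equal number of peaks they were 3 and 3, and 0 for other peaks; the number of peaks then separated the ages for 0 members in place of 3. Leaving out each library gave 4 to 6, 4 to 6 and 3 to 4 members, and 3 to 6 by number of peaks, where the 6 came without neonatal replicate 2. The adult minus neonatal number of members with a promoter peak was 1.33, and 0.5 to 2 without each library, but -1.33 with an equal number of peaks. For the E-protein partners it was 0.33 (-0.17 to 0.83; -1 with an equal number) and for the BMP genes 0.67 (-0.67 to 2.83; -1.67). The sites of the authors' deposited table numbered 69 at an adjusted p under 0.005, 101 by position (28 at Tcf12) and 78 with 50% overlap, none of them negative.

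For single members, 188 of the alternatives kept the direction of the covered-length difference, 15 reversed it and 2, over all peaks, left no peak. The 188 include pairing by replicate number, which leaves the difference itself unchanged and so could not reverse a direction. Cases where an alternative left no promoter peak or no other peak are not in these counts. Among them, with an equal number of peaks, were the promoter peaks of Id1 and Id4 and the other peaks of Id1, Id3, Tcf3 and Tcf4. With an equal number of peaks the difference was -1.30 kb for Id2 and -0.12 kb for Id3 over all peaks, and -0.83 and -0.12 kb over promoter peaks. Without each library it ran from -0.46 to 1.30 kb for Id2 over all peaks, -0.28 to 1.11 kb over promoter and -0.34 to 0.20 kb over other peaks, and for Id1 from -0.017 to 0.92 kb over promoter and -0.14 to 0.27 kb over other peaks. Id1 other peaks differed by 0.057 kb by position and 0.19 kb with promoters within 1000 bp, from -0.0013 kb. The equal number keeps 9.55% to 10.2% of each adult list against 23.6% to 100% of the neonatal lists, which lowers the adult values by construction; the cause of the other changes was not tested. The replicate numbers did not pair the libraries: deviations of same-numbered libraries over genes correlated at -0.011, -0.047 and -0.025. With the replicate block, all 3 same-numbered pairs were higher in the adult library for 5 members over all peaks, 5 over promoter and 3 over other peaks, and the smallest p of that sign-flip test is 0.25. Unknown depth limits what the absence of a peak shows.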
